A study of Homo sapiens with 6 samples.

Results

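Glycolysis and the response to low oxygen were followed through 39 genes, chosen as a list of symbols and found in the table by their Ensembl identifiers. All 39 of 39 were found among 62438 gene identifiers, and all 39 passed the filter on low counts. They comprise 2 glucose transporters, 8 genes of upper glycolysis, 9 of lower glycolysis, 5 for the fate of lactate and pyruvate, 4 hypoxia-inducible factor (HIF) subunits and prolyl hydroxylases, and 11 HIF targets. mRNA was sequenced from a breast cancer cell line labelled MDA-MB-453, 48 h after transfection with 10 nM siRNA against N6AMT1 (si-N6AMT1, 3 libraries) or 10 nM scrambled siRNA (si-CN, 3 libraries). Every library therefore came from transfected cells, no untransfected sample was compared, and the labels name no low-oxygen treatment. The RNA came from triplicate transfected cells, without further word on whether these were separate cultures, so the p-values measure only the spread between these libraries, which may be technical. In bulk RNA, fewer cells of a type and less RNA per cell cannot be told apart.

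Glycolysis splits glucose into pyruvate, which cells either pass to mitochondria or reduce to lactate and export. HIF is a transcription factor made of an oxygen-sensitive alpha subunit and a stable beta subunit. When oxygen is present, prolyl hydroxylases of the EGLN family mark the alpha subunit for degradation, and when it is scarce HIF binds short DNA elements and switches on glucose transporters, most glycolytic enzymes and genes for pH control, vessel growth and mitophagy. Since HIF is controlled mainly through the stability of its protein, transcript levels of HIF1A do not measure its activity. Many breast cancer lines use glycolysis heavily even in oxygen.

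Library totals ran from 19739247 to 21289740 counts. N6AMT1, the targeted methyltransferase gene, had 60 to 72 counts in si-N6AMT1 libraries and 135 to 141 in si-CN libraries, a change of -1.10 on the log2 scale (SE 0.119, adjusted p = 3.65e-07 from edgeR's quasi-likelihood test). Levels are given as CPM, the counts of a gene after scaling each normalised library to a total of 1000000. The luminal markers KRT8, KRT18 and XBP1 stood at 595 to 658 CPM, 449.9 to 490.3 CPM and 77.0 to 82.4 CPM. Of the other luminal markers, FOXA1 was below 9 CPM and SPDEF had 1 to 6 counts. The basal and mesenchymal markers KRT5 and VIM stood at 755 to 838 CPM and 616 to 638 CPM. KRT14, CDH2 and ZEB1 were also present, so marker levels went partly against the luminal character for which this line is known, and the cells are called by their label only. PTPRC, CD3E and CDH5, which mark leukocytes and endothelium, had 0 to 3 counts. In si-N6AMT1, 2 of 5 luminal markers (KRT8 and KRT18) and 3 of 5 basal and mesenchymal markers (KRT5, KRT14 and ZEB1) rose, by 0.08 to 0.19 on the log2 scale. Summed luminal levels ran from 1214 to 1234 CPM in si-N6AMT1 and from 1131 to 1164 CPM in si-CN, and summed basal and mesenchymal levels from 1667 to 1693 CPM and from 1603 to 1649 CPM. Their part in the results was not tested.

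Of the 39 genes, 9 rose and 12 fell in si-N6AMT1, and 18 were not called (edgeR's quasi-likelihood test, Benjamini-Hochberg adjusted p under 0.05 over 17320 genes). Thus 53.8% were called, where 21.3% of all genes tested were called, 9.78% as higher and 11.5% as lower. Most of these transcripts were abundant, and 36 of the 39 averaged at least 100 CPM. Of these 36, 55.6% were called, 9 as higher and 11 as lower, against 49.3% of the 2343 tested genes at that level (20.4% higher and 28.9% lower). The share of called genes was therefore close to that of other abundant transcripts. In 25 of the 39 the groups of libraries did not overlap, which held for 34.9% of all genes tested and for 61.1% of those with at least 100 CPM.

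All of the differences were small. Log2 fold changes ran from -0.20 (ALDOC, 12.8% lower) to 0.17 (CA9, 12.8% higher), with a median of -0.02 and a median size of 0.07, beside medians of 0.00 and 0.11 over all tested genes and a median size of 0.07 at 100 CPM or more. The biological coefficient of variation was 1.85%, so that differences of a few percent could pass the test. Upper glycolysis, the HIF regulators and the HIF targets each held genes that rose and genes that fell.

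**Figure D1:**
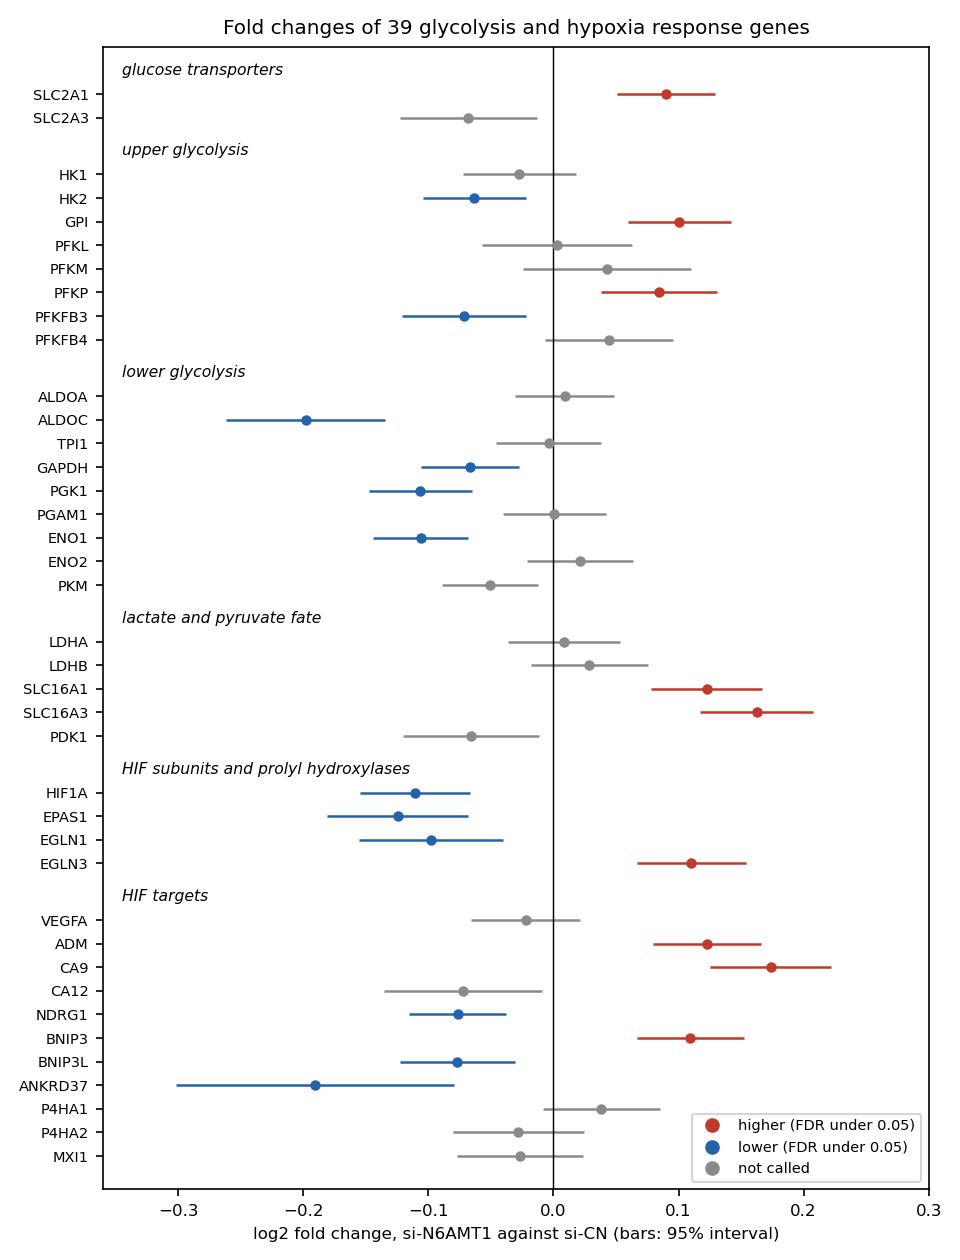
Log2 fold changes of the 39 genes, si-N6AMT1 against si-CN, grouped by role, with 95% intervals from edgeR's quasi-likelihood fit (points, 3 libraries per group). Values lie between -0.20 and 0.17, with upper glycolysis, the HIF subunits and prolyl hydroxylases, and the HIF targets each holding genes called higher and genes called lower.

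To compare transcripts with one another, levels were divided by transcript length (estimated TPM, scaled to 1000000 transcripts per library). In si-CN libraries the list held 3 of the 20 most abundant genes and 9 of the 100 most abundant. GAPDH, which oxidises glyceraldehyde 3-phosphate, led with 9799 ± 30.5 TPM (SD, n = 3) and ranked 5 among all genes, and was followed by ENO1, the main enolase, with 4301 ± 42.3 TPM. NDRG1, a hypoxia- and stress-induced gene, reached 4247 ± 51.7 TPM, and its mean ± SD overlapped that of ENO1. LDHA, the lactate-forming dehydrogenase subunit, came next with 3346 ± 46.2 TPM, and ALDOA, PKM, PGK1, TPI1, LDHB and PGAM1 ranged from 2397 down to 1224 TPM. PGK1 (1941 ± 14.4 TPM) and TPI1 (1923 ± 12.6 TPM) were neighbours within their spread.

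The HIF targets ADM (1168 ± 9.23 TPM) and BNIP3 (725 ± 6.24 TPM) and the glucose transporter SLC2A1 (1117 ± 21.7 TPM) formed the next group. At the other end stood CA12 with 30.3 ± 0.0655 TPM and PDK1 with 25.6 ± 0.820 TPM. Reference transcripts of PGK1 (4812 bases) and PDK1 (14072 bases) have long 3′ ends, which lowers their level per length if shorter forms are used. CA9, the tumour-associated carbonic anhydrase, stood at 365 ± 4.59 TPM and EGLN3, a HIF-induced prolyl hydroxylase, at 586 ± 11.9 TPM.

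**Figure D2:**
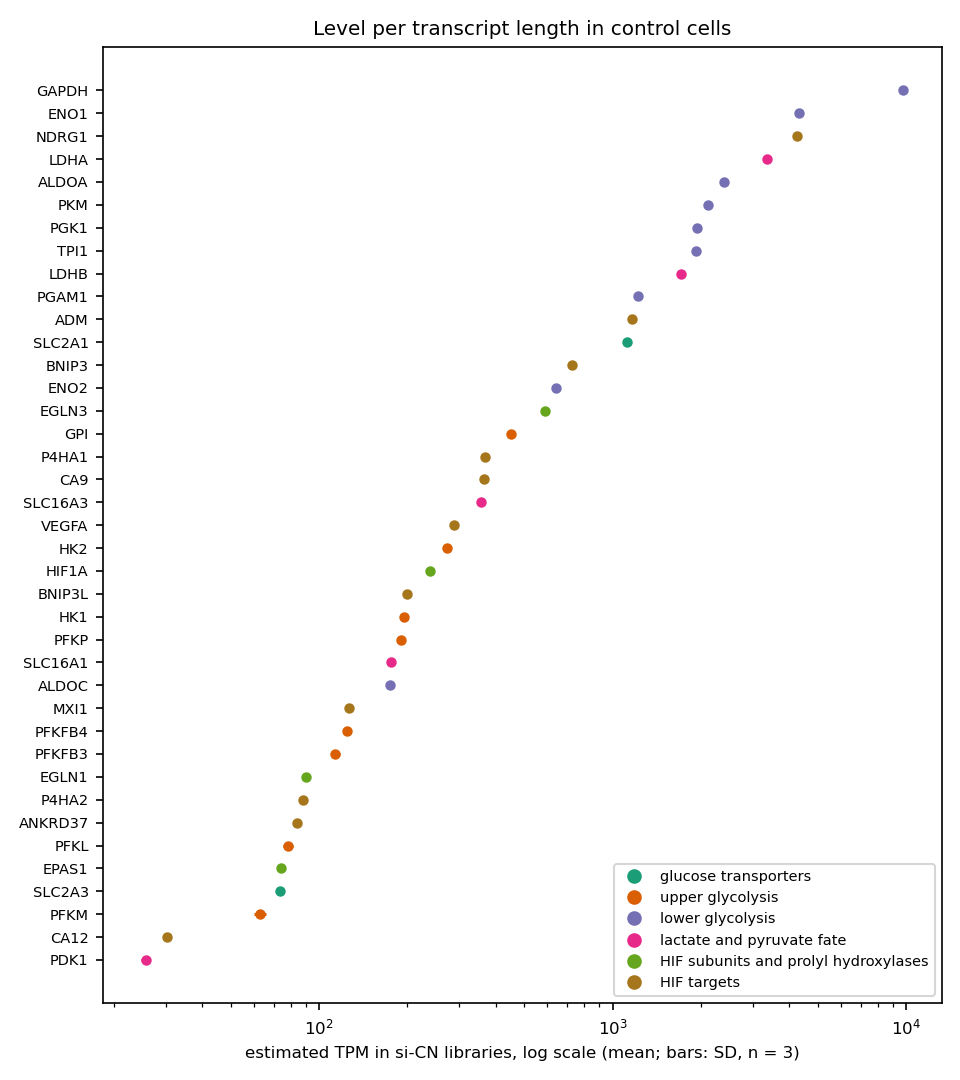
Estimated TPM of the 39 genes in the si-CN libraries on a log axis, coloured by role (mean and SD of 3 libraries, with most error bars smaller than the points). Levels run from 25.6 TPM for PDK1 to 9799 TPM for GAPDH, with most lower glycolysis genes among the highest.

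HIF binds the core sequence ACGTG or GCGTG, so the promoters of the genes were searched for these letters on both strands. RefSeq windows on GRCh38.p14, from 250 bases before to 50 bases after the start, matched 34 of the 39 genes, and windows for SLC2A3, SLC16A1, VEGFA, NDRG1 and BNIP3L were not used here. A match occurred in 31 of the 34 genes (91.2%), compared with 68.3% of 11714 tested genes with a window. It occurred in 66.7% of the 63 windows of these genes, compared with 48.4% of all 35116 windows. The list was chosen to hold HIF targets and genes of glycolysis, so a higher share than over all genes is no independent result. Windows were not matched for base composition or expression level. Genes that rose held a match in 7 of 8 cases, those that fell in 10 of 10, and those not called in 14 of 16, so the share with a match was at least 87.5% in each. The 250 bases before the start are shown for the called genes with one window and the lowest (ALDOC, ANKRD37) or highest (ADM, CA9) fold change in the edgeR fit, 5′ to 3′, since these carry the extremes of that comparison. Capitals mark the core sequence on either strand. The palindrome CACGTG counts as a match on both strands.
ALDOC (chr17:28576896-28577145, minus strand): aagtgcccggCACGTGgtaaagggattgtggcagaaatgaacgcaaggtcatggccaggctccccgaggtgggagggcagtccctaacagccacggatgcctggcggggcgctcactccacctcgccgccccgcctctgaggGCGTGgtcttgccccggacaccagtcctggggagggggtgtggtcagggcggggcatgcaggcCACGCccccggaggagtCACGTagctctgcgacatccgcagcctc
ANKRD37 (chr4:185396591-185396840, plus strand): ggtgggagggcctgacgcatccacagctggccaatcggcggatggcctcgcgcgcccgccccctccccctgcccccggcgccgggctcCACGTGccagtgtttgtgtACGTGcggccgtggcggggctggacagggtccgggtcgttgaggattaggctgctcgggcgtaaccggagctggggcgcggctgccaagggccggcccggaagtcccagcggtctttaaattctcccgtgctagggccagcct
ADM (chr11:10304823-10305072, plus strand): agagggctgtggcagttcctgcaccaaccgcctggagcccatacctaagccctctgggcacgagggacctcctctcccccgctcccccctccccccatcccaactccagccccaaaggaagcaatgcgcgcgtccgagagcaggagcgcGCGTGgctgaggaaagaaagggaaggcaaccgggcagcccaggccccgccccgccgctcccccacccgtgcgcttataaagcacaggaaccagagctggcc
CA9 (chr9:35673678-35673927, plus strand): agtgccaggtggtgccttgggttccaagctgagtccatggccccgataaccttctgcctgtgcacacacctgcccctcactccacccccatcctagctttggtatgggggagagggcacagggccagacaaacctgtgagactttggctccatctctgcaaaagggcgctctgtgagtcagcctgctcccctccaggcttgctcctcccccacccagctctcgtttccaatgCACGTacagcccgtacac
ALDOC had 5 matches between 240 and 28 bases before the start, ANKRD37 had 3, and CA9 and ADM had 1 each. The other called genes with 1 window did not keep to this order. Of those that rose, BNIP3 had 6 matches, SLC2A1 and GPI had 1 each and EGLN3 had 0. Of those that fell, PGK1 had 4, ENO1 and GAPDH had 2 each, and EGLN1 and EPAS1 had 1 each. These counts describe the windows searched, and a match of 5 letters is not a binding site.

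Glucose uptake genes moved little. SLC2A1, the main glucose transporter of tumour cells (ENSG00000117394, GRCh37 chr1:43391024-43424564), stood at 1826, 1791 and 1810 CPM in si-N6AMT1 and at 1685, 1708 and 1706 CPM in si-CN. Every si-N6AMT1 library was above every si-CN library, and the gene rose by 6.45% (log2 fold change 0.09, SE 0.0189, edgeR adjusted p = 0.00115). The neuronal-type transporter SLC2A3 was at 119 to 122 CPM against 125 to 128 CPM, groups that did not overlap but did not pass the test (log2 fold change -0.07, 95% interval -0.12 to -0.01, edgeR adjusted p = 0.0709). As a share of both transporters, SLC2A3 made up 5.58% ± 0.102 in si-N6AMT1 and 6.18% ± 0.0413 in si-CN.

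In upper glycolysis, where glucose is phosphorylated and committed, 2 of 8 genes rose, 2 fell and 4 were not called. GPI, which converts glucose 6-phosphate to fructose 6-phosphate (chr19:34850385-34893318), had 897, 888 and 906 CPM in si-N6AMT1 and 847, 834 and 829 CPM in si-CN. It rose by 7.23% (log2 fold change 0.10, SE 0.0199, edgeR adjusted p = 0.000656). PFKP, the platelet-type phosphofructokinase (chr10:3108525-3179910), was at 237, 236 and 238 CPM against 223, 222 and 226 CPM. These groups did not overlap, and PFKP rose by 6.01% (log2 fold change 0.08, SE 0.0224, edgeR adjusted p = 0.00857). With the replicate number as a block and a correction for GC content (replicate block and GC correction) the call was lost (log2 fold change 0.06, adjusted p = 0.149).

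HK2, the inducible hexokinase (chr2:75061254-75120486), was at 661, 662 and 662 CPM in si-N6AMT1 and at 688, 688 and 698 CPM in si-CN, and it fell by 4.29% (log2 fold change -0.06, SE 0.0197, edgeR adjusted p = 0.0241). PFKFB3 makes fructose 2,6-bisphosphate, an activator of phosphofructokinase (chr10:6186897-6296607). It had 218, 217 and 219 CPM in si-N6AMT1 and 222, 232 and 232 CPM in si-CN, and it fell by 4.84% (log2 fold change -0.07, SE 0.0241, edgeR adjusted p = 0.0368). Both calls were near the threshold. Without si-CN replicate 3 the edgeR adjusted p was 0.121 for HK2 and 0.172 for PFKFB3, and without si-CN replicate 2 it was 0.0526 and 0.142. Without si-N6AMT1 replicate 2 it was 0.0653 and 0.117, without si-N6AMT1 replicate 3 it was 0.0679 and 0.0786, and without si-N6AMT1 replicate 1 it was 0.0673 for PFKFB3. DESeq2 gave PFKFB3 an adjusted p of 0.115. Among the genes not called (HK1, PFKL, PFKM and PFKFB4), PFKFB4, the isoenzyme related to PFKFB3, had the largest value, at 203, 196 and 205 CPM against 194, 194 and 199 CPM (log2 fold change 0.04, 95% interval -0.01 to 0.10). SENP1, on the strand opposite PFKM and overlapping it, had 58.2% as many counts as PFKM and fell by 0.15 on the log2 scale (edgeR adjusted p = 0.00803).

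In lower glycolysis, which yields ATP and pyruvate, 4 of 9 genes fell and 5 were not called. ALDOC, the aldolase typical of brain (ENSG00000109107, chr17:26900133-26903966), had the lowest fold change of the list in this fit, although that of ANKRD37 was lower without si-N6AMT1 replicate 2, without si-CN replicate 2 and without si-CN replicate 3. It stood at 107, 108 and 115 CPM in si-N6AMT1 and at 123, 127 and 128 CPM in si-CN (log2 fold change -0.20, SE 0.0307, edgeR adjusted p = 4.47e-05). All 3 si-N6AMT1 libraries were below the lowest si-CN library. The widely expressed ALDOA, at 1767, 1776 and 1791 CPM against 1784, 1775 and 1742 CPM, overlapped between groups (log2 fold change 0.01, 95% interval -0.03 to 0.05).

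PGK1 and ENO1, which act before and after phosphoglycerate mutase, had like log2 fold changes. ENO1 (chr1:8921059-8939249) was at 3186, 3178 and 3231 CPM in si-N6AMT1 and at 3455, 3454 and 3420 CPM in si-CN (log2 fold change -0.11, SE 0.0182, edgeR adjusted p = 0.000147). PGK1, the first ATP-forming enzyme (chrX:77166236-77384792), was at 3829, 3906 and 3967 CPM against 4291, 4169 and 4139 CPM (log2 fold change -0.11, SE 0.020, edgeR adjusted p = 0.000397). Neither gene had overlapping groups, and both were called without any one library. GAPDH (chr12:6643678-6647540) had 5306, 5436 and 5470 CPM in si-N6AMT1 and 5727, 5617 and 5637 CPM in si-CN, and it fell by 4.52% (log2 fold change -0.07, SE 0.0187, edgeR adjusted p = 0.0122). GAPDH is often used as a reference gene, and here its groups did not overlap. Its 65 annotated pseudogenes held 0.0305% of the summed counts of GAPDH and these pseudogenes.

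PKM, which makes pyruvate and whose splice forms were not separated, had the largest value among the lower glycolysis genes not called. It was at 2102, 2092 and 2128 CPM in si-N6AMT1 and at 2184, 2197 and 2168 CPM in si-CN (log2 fold change -0.05, 95% interval -0.09 to -0.01, edgeR adjusted p = 0.0552), and DESeq2 gave it an adjusted p of 0.0154. TPI1, PGAM1 and ENO2 had log2 fold changes of -0.00, 0.00 and 0.02. ENO2 is the neuronal enolase, and next to the fall of ENO1 its share of the ENO1 and ENO2 sum was 14.0% ± 0.150 in si-N6AMT1 and 12.9% ± 0.148 in si-CN.

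Both lactate transporters of the list rose. SLC16A3 (MCT4), the exporter known from glycolytic and hypoxic cells (ENSG00000141526, chr17:80175810-80219005), had 474, 457 and 464 CPM in si-N6AMT1 and 411, 415 and 421 CPM in si-CN. It rose by 11.9% (log2 fold change 0.16, SE 0.0218, edgeR adjusted p = 6.93e-06), and with the replicate block and GC correction its log2 fold change was 0.11, below the 0.16 of SLC16A1. SLC16A1 (MCT1), which moves lactate in both directions (chr1:113454469-113500215), had 323, 321 and 325 CPM against 297, 295 and 297 CPM and rose by 8.87% (log2 fold change 0.12, SE 0.0214, edgeR adjusted p = 0.000173). For both, each si-N6AMT1 library exceeded each si-CN library, and both remained called without any one library. CSNK1D overlaps SLC16A3 on the other strand with 44.6% as many counts, and had a log2 fold change of -0.00 (edgeR adjusted p = 0.948).

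Lactate dehydrogenase itself did not pass the test. LDHA was at 3316, 3462 and 3394 CPM in si-N6AMT1 and 3472, 3317 and 3325 CPM in si-CN, so the groups overlapped (log2 fold change 0.01, 95% interval -0.04 to 0.05). LDHB, which favours pyruvate formation, had a log2 fold change of 0.03 (95% interval -0.02 to 0.08). PDK1, a kinase that inhibits pyruvate dehydrogenase, was at 158, 154 and 152 CPM against 158, 164 and 164 CPM (log2 fold change -0.07, 95% interval -0.12 to -0.01, edgeR adjusted p = 0.0782). Without si-CN replicate 1 its adjusted p was 0.0415.

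Summed over the 24 transporters and enzymes of these roles, the genes took 2.92%, 2.93% and 2.97% of all counts in si-N6AMT1 and 2.99%, 2.97% and 2.96% in si-CN. The means of 2.94% ± 0.0244 and 2.98% ± 0.0152 differed by -0.0386 percentage points (two-sided exact permutation test, p = 0.2, n = 3 per group, smallest possible p = 0.1). Without GAPDH, ENO1 and PKM the difference was 0.0101 percentage points. These 3 genes all had negative log2 fold changes, so leaving them out moves the sum upward by construction and says nothing further of the sum.

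The 4 HIF subunits and prolyl hydroxylases of the list were all called, 3 lower and 1 higher. Each averaged at least 100 CPM, a level at which 49.3% of tested genes were called. Outside the list, the subunit genes HIF3A (6 to 23 counts), ARNT and ARNT2 were not called (edgeR adjusted p = 0.678, 0.232 and 0.206). HIF1A, the ubiquitous alpha subunit (ENSG00000100644, chr14:62162231-62214977), was at 391, 393 and 388 CPM in si-N6AMT1 and at 415, 425 and 426 CPM in si-CN (log2 fold change -0.11, SE 0.0212, edgeR adjusted p = 0.000488). With the replicate block and GC correction, it had an adjusted p of 0.0603. EPAS1, which encodes HIF-2 alpha (chr2:46520806-46613836), had 164, 156 and 153 CPM against 170.1, 175 and 171 CPM, also without overlap (log2 fold change -0.12, SE 0.0271, edgeR adjusted p = 0.00168). The share of EPAS1 in the sum of both subunits overlapped between groups (exact permutation p = 0.8).

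The 2 hydroxylases of the list moved apart. EGLN3 (chr14:34393433-34931980), itself a strong HIF target, was at 763, 769 and 778 CPM in si-N6AMT1 and at 718, 698 and 724 CPM in si-CN (log2 fold change 0.11, SE 0.0208, edgeR adjusted p = 0.000423). EGLN1, the main oxygen sensor (chr1:231499497-231558033), was at 165, 167 and 159.6 CPM against 182, 173 and 171 CPM (log2 fold change -0.10, SE 0.0278, edgeR adjusted p = 0.0134). Neither had overlapping groups, but the call of EGLN1 was lost without si-N6AMT1 replicate 3 (adjusted p = 0.0910) and without si-CN replicate 1 (adjusted p = 0.0878), and DESeq2 gave an adjusted p of 0.0521. EGLN3 made up 88.3% ± 0.320 of the 2 transcripts per length in si-N6AMT1 and 86.7% ± 0.430 in si-CN. This share leaves out EGLN2, a prolyl hydroxylase gene outside the list. EGLN2 was at 34.6, 33.4 and 34.3 CPM against 32.5, 29.6 and 31.0 CPM. It rose, without overlap between groups (log2 fold change 0.14, SE 0.0471, edgeR adjusted p = 0.0432).

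Of the 11 HIF targets, 3 rose, 3 fell and 5 were not called. CA9, which acidifies the surroundings of hypoxic tumour cells (ENSG00000107159, chr9:35673925-35681156), had 279.8, 286 and 293 CPM in si-N6AMT1 and 254, 255 and 252 CPM in si-CN. Its log2 fold change of 0.17 (SE 0.0233, edgeR adjusted p = 6.88e-06) was the highest of the list in this fit, but not in others. It was 0.14 with the replicate block and GC correction, below SLC16A1 and BNIP3, and it lay below SLC16A3 without si-CN replicate 3 and without si-N6AMT1 replicate 3. ADM, which encodes the vasodilator adrenomedullin (chr11:10326620-10328944), was at 842, 848 and 869 CPM against 794, 773 and 784 CPM (log2 fold change 0.12, SE 0.0207, edgeR adjusted p = 0.000122). BNIP3, a mitophagy receptor (chr10:133781188-133795471), was at 535, 543 and 549 CPM against 505, 503 and 501 CPM (log2 fold change 0.11, SE 0.0206, edgeR adjusted p = 0.000399). In each of these 3 genes the groups stood apart, and 44 annotated pseudogenes of BNIP3 held 0.817% of the summed counts of BNIP3 and these pseudogenes. ARHGEF39, opposite CA9, had 7.63% as many counts as CA9 and a log2 fold change of 0.16 (edgeR adjusted p = 0.110).

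Other targets of the same factor fell. NDRG1 (chr8:134249418-134314265) was at 5500, 5544 and 5384 CPM in si-N6AMT1 and at 5801, 5819 and 5705 CPM in si-CN (log2 fold change -0.08, SE 0.0186, edgeR adjusted p = 0.00421). BNIP3L, the paralog of BNIP3 and likewise a mitophagy receptor (chr8:26240570-26363152), was at 294, 295 and 292 CPM against 316, 307 and 307 CPM (log2 fold change -0.08, SE 0.0222, edgeR adjusted p = 0.0152). BNIP3 and BNIP3L thus moved in opposite directions, and the share of BNIP3L in their sum was 19.5% ± 0.275 in si-N6AMT1 and 21.6% ± 0.237 in si-CN. ANKRD37, a small ankyrin repeat gene (chr4:186317175-186321782), had the lowest CPM of the list, with 24.2, 26.3 and 27.2 CPM against 30.7, 28.5 and 29.6 CPM (log2 fold change -0.19, SE 0.0536, edgeR adjusted p = 0.0125). UFSP2 overlaps ANKRD37 on the opposite strand with 69.6% as many counts and had a log2 fold change of -0.04 (edgeR adjusted p = 0.737).

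The calls of BNIP3L and ANKRD37 depended on single libraries. Without si-N6AMT1 replicate 3 the adjusted p of BNIP3L was 0.0646 and without si-CN replicate 1 it was 0.0681, and with the replicate block and GC correction it was 0.454. For ANKRD37 it was 0.0793 without si-N6AMT1 replicate 1, 0.0564 without si-CN replicate 1 and 0.106 in DESeq2. In all, 7 of the 12 genes that fell and 9 of the 9 that rose kept their call without each of the 6 libraries in turn. Among the targets not called (VEGFA, CA12, P4HA1, P4HA2 and MXI1), CA12, a second membrane carbonic anhydrase, had the largest value, at 77.8, 80.1 and 79.3 CPM against 84.3, 82.5 and 82.7 CPM (log2 fold change -0.07, 95% interval -0.14 to -0.01, edgeR adjusted p = 0.102). VEGFA, the vessel growth factor, was at 468, 453 and 459 CPM against 467, 466 and 469 CPM (log2 fold change -0.02, 95% interval -0.07 to 0.02).

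**Figure D3:**
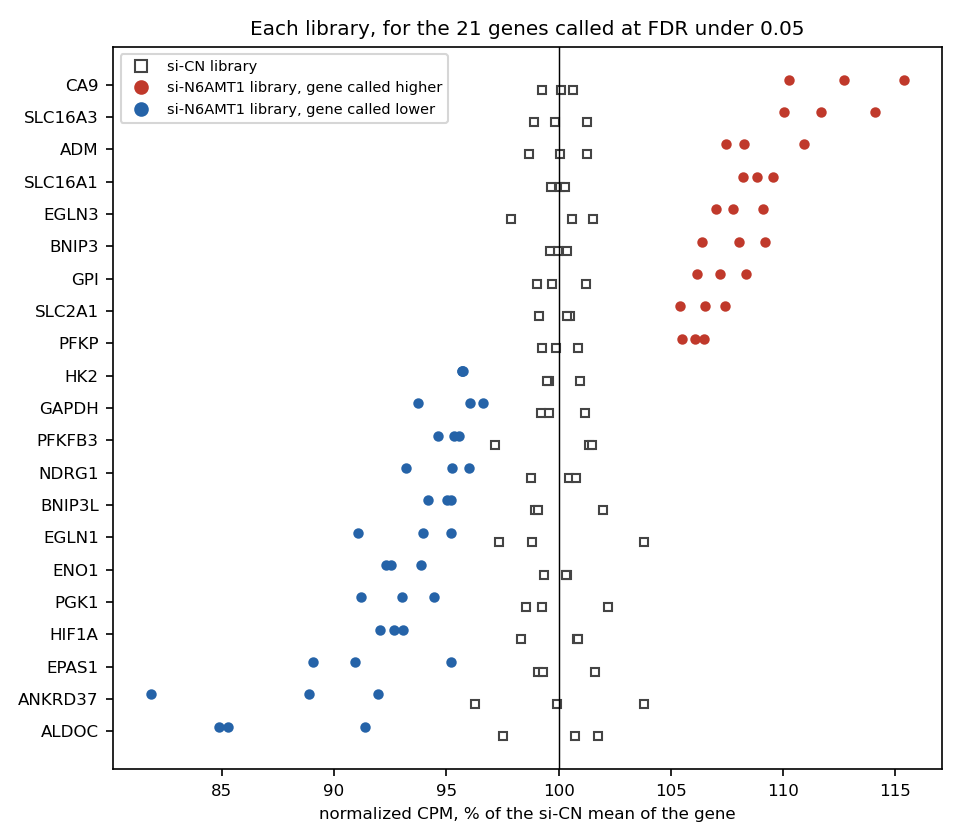
Normalised CPM of each library as a percentage of the si-CN mean of the gene, for the 21 genes called at an adjusted p under 0.05 (filled circles, si-N6AMT1, red for genes called higher and blue for lower, and open squares, si-CN). In all 21 genes the 3 si-N6AMT1 libraries lie on one side of the 3 si-CN libraries, and the widest spread is in ANKRD37.

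The share that one paralog took of its family was compared in 13 families, using levels per length. Only EGLN1 with EGLN3 and BNIP3 with BNIP3L held paralogs called in opposite directions. In 10 of 13 the groups did not overlap, each with an exact permutation p = 0.1, the smallest that 3 against 3 libraries allow, and 0.13 after Benjamini-Hochberg adjustment over 13 families. Among single tested genes with at least 100 CPM, 61.1% had groups that did not overlap, and shares in other gene families were not compared. PFKFB4 took 54.3%, 53.7% and 54.5% of the PFKFB3 and PFKFB4 sum in si-N6AMT1 and 52.7%, 51.7% and 52.3% in si-CN, a difference of 2.0 percentage points. BNIP3L differed by -2.10 points, EGLN3 by 1.58 and CA9 by 1.12. Without scaling to transcript length these differences were -2.99, 2.19 and 3.03 points, while that of PFKFB4 stayed at 2.0, so the order of the families depends on the scaling. In both cases 10 of 13 families did not overlap. CA9 took 93.5% ± 0.108 of the CA9 and CA12 sum against 92.3% ± 0.0986, and ALDOC took 5.93% ± 0.197 of the ALDOA and ALDOC sum against 6.78% ± 0.209. Other genes of these families were left out of the sums. These shares rest on the same counts as the gene values above and add no independent evidence. LDHB, EPAS1 and P4HA2 were the families in which the groups overlapped (exact permutation p = 0.4, 0.8 and 0.2).

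**Figure D4:**
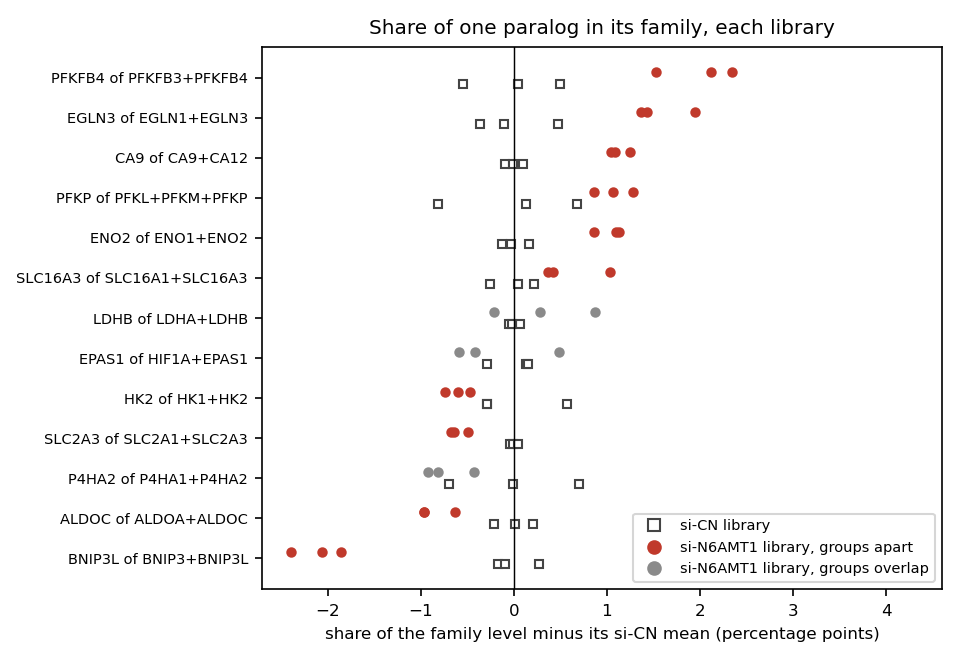
Share of one paralog in the length-scaled level of its family, minus its si-CN mean, in percentage points (each point is 1 of 6 libraries). PFKFB4 lies 2.0 points above the si-CN mean on average and BNIP3L differs by -2.10 points. In 10 of 13 families the groups do not overlap, beside 61.1% of single tested genes with at least 100 CPM.

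Of 103 other genes of the same pathways, 92 were tested, of which 12 rose, 18 fell and 62 were not called. This is 32.6% called, beside 21.3% of all genes tested and 49.3% of those with at least 100 CPM. Among 35 tested genes of glycolysis and pyruvate use, 4 rose and 8 fell. TIGAR, a fructose 2,6-bisphosphatase, had 12.9, 16.3 and 14.6 CPM against 11.6, 10.5 and 13.5 CPM, with overlapping groups (log2 fold change 0.30, SE 0.0925, edgeR adjusted p = 0.0237). SLC16A7 (MCT2), a pyruvate and lactate importer, was at 19.98, 20.1 and 20.1 CPM against 27.7, 27.2 and 29.9 CPM (log2 fold change -0.49, SE 0.0550, edgeR adjusted p = 5.30e-07). It fell while SLC16A1 and SLC16A3 rose. Of 14 pentose phosphate and glycogen genes 0 were called by edgeR, DESeq2 or limma-voom, where edgeR called 21.3% of all genes tested, and 3 had an unadjusted edgeR p under 0.05.

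Among 11 other genes of HIF control 3 rose and 8 were not called. CITED2, which competes with HIF for its coactivator, was at 226, 222 and 227 CPM against 171, 169 and 176 CPM, a rise of 31.0% (log2 fold change 0.39, SE 0.0245, edgeR adjusted p = 6.88e-11). This change was larger than that of any of the 39 genes. Of 32 other HIF targets 5 rose and 10 fell, led by PLOD1, a collagen lysyl hydroxylase (log2 fold change 0.17, SE 0.0210, edgeR adjusted p = 1.74e-06), and by TFRC, the transferrin receptor. TFRC was at 78.1, 75.8 and 75.7 CPM against 100.9, 105 and 103 CPM (log2 fold change -0.43, SE 0.0301, edgeR adjusted p = 4.44e-10). Of the 11 genes of HIF control 27.3% were called, and of the 32 targets 46.9%. Over all genes tested 21.3% were called, and 49.3% of those with at least 100 CPM. The other HIF targets moved in both directions, as did the 39 genes. So did all genes tested, with 9.78% called higher and 11.5% lower.

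The 3′ UTRs were searched for TTCACAT and TCACATA, which an earlier analysis of these same libraries had found more often in genes that fell, so their count over all genes is no independent result. In this fit 44.1% of genes that fell held one of them, compared with 22.5% of all 13083 tested genes with a UTR of at least 50 bases and 11.9% of genes that rose. Longer UTRs have more room for a match, and UTR lengths were not matched between these groups. Of the 39 genes, 8 held a match (20.5%), close to the share over all genes. They comprised 3 of the 12 that fell (HK2, HIF1A and EGLN1), 3 of the 9 that rose (SLC2A1, GPI and EGLN3) and 2 of the 18 not called (PDK1 and CA12). The matches of the called genes are shown 5′ to 3′ with 8 bases on either side (GRCh37), with the searched letters in capitals.
HK2 (chr2:75118273-75118295, plus strand): aggatttgTTCACATgcatcata
HIF1A (chr14:62214202-62214224, plus strand): ccttttttTTCACATtttacata
EGLN1 (chr1:231500659-231500681, minus strand): acaaggccTCACATAcatgttat
SLC2A1 (chr1:43391594-43391616, minus strand): catttctaTCACATAtttgatag
GPI (chr19:34891187-34891209, plus strand): tcacgttgTTCACATcccatgta
EGLN3 (chr14:34394960-34394982, minus strand): ttgcatccTTCACATccctgtct
Genes with a match thus occurred on both sides, and the prolyl hydroxylases EGLN1 and EGLN3, which moved apart, each held one. The other 9 genes that fell, among them ALDOC, PGK1, ENO1 and EPAS1, held none of these letters in the UTR searched.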

How the data were processed

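The authors trimmed paired-end reads with Trim Galore, estimated transcript abundance with kallisto 0.46.0 on GENCODE v33 (hg19) and summed it per gene. The strand setting is not given in the sources used here. The deposited values are estimated counts (expected counts, whole numbers, not normalised) for 62438 genes in 6 libraries, and 62149 identifiers were matched to a symbol with GENCODE v44 on GRCh37.

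Counts were tested with edgeR 4.0.16 in R 4.3.3 (TMM, minimum count of 10 in its expression filter, quasi-likelihood test, Benjamini-Hochberg adjusted p under 0.05 over 17320 genes, no covariate). Standard errors and 95% intervals come from the same fit. Estimated TPM used the canonical transcript's length. Shares were compared with two-sided exact permutation tests in scipy 1.17.1. The edgeR step was tested on simulated data with fold changes larger than those of the listed genes, so that test does not bear on changes this small. Library pairs differed beyond sampling noise, so all 6 were counted. Chi-square per degree of freedom was 1.35 to 1.69 within groups and 6.07 to 6.86 between groups. The small excess within groups does not show that the libraries came from separate cultures.

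The 39 members, the roles and the other lists were chosen with earlier results of these data known. Called members are given for every library, and of the others the one with the largest absolute log2 fold change in each role. Further members not called, such as ALDOA, LDHA and VEGFA, and genes overlapping a member were chosen after their values were seen. In the other lists, the called gene with the largest change in each direction is named. EGLN2, HIF3A, ARNT and ARNT2 were named in addition, after their values were seen. Alternatives were RLE size factors, DESeq2 1.42.0, limma-voom 3.58.1, no filter, no mitochondrially encoded genes, a replicate block with and without GC correction, unscaled shares and leaving out each library.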

Additional observations from a re-analysis of the deposited data

How the results depend on the processing

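The 9 genes that rose were the same 9 under RLE size factors, DESeq2, limma-voom, no filter, no mitochondrially encoded genes, the replicate block and the removal of each library, and 8 of the 9 with the replicate block and GC correction, where PFKP was lost (adjusted p = 0.149) and P4HA1 gained (0.0414). The 12 that fell became 10 in DESeq2, 13 in limma-voom and 8 to 10 without single libraries, with 8 without si-N6AMT1 replicate 3. Same-numbered libraries did not deviate together (r = -0.109, -0.071 and -0.008), so the replicate numbers were not taken as a pairing. The replicate block left 9 genes higher and 9 lower, without HK2 (adjusted p = 0.0902), PFKFB3 (0.0792) and GAPDH (0.0738), and with GC correction 9 and 10. The other pathway genes numbered 12 higher and 18 lower in the main analysis, 8 and 12 in DESeq2, and 7 to 13 higher without single libraries, with 7 without si-CN replicate 2. The difference in summed share, si-N6AMT1 minus si-CN, was -0.0626 percentage points without mitochondrially encoded genes and -0.0521 to -0.0283 without single libraries. It was 0.0101 without GAPDH, ENO1 and PKM, which removes 3 genes with negative fold changes. Between 10 and 12 of the 13 family shares did not overlap without single libraries, and 10 without length scaling. Leaving out a library cannot make separate groups overlap. The count without single libraries therefore could not fall below 10 and says nothing of stability. With 3 libraries per group a permutation test cannot reach 0.05. Per-gene counts rest on how kallisto divided reads among similar or overlapping transcripts, and this was not tested.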
